A study of Mus musculus with 574 samples.

Results

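Single cells of the E13.5 mouse ventral midbrain (E for embryonic day) were split by their level of Lmx1a, and the neurons with and without this transcript were compared across all genes. Members were chosen by 2 measured values in the E13.5 cells, out of 550 single cells in the series. A cell was kept as a neuron when Stmn2, a tubulin-binding protein of growing axons, reached 10 RPKM (reads per kilobase of a transcript and per M reads of the library). Of the neurons, 53 had Lmx1a under 1 RPKM and are called Lmx1a-negative neurons, 60 had at least 10 RPKM and are called Lmx1a-positive neurons, and 6 lay between the bounds. The other 26 cells of E13.5 fell below the Stmn2 bound. The levels of Stmn2 and Lmx1a chose the members, so their differences, and all differences between these same cells, are given as descriptions with no test.

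Every library came from C57BL/6 embryos heterozygous for Lmx1a-EGFP, a green fluorescent protein (GFP) reporter for Lmx1a, and the tissue is labelled as developing ventral midbrain. There was no group without the reporter. Libraries were made by Smart-seq2, which copies whole transcripts, and the labels do not state how single cells were picked or sorted. Besides the E13.5 cells, use was made of single cells of E12.5 and of pools of 100 cells, with 6 GFP positive and 6 GFP negative pools at E13.5 and as many at E10.5. No embryo or litter is named in the labels. The E13.5 cells therefore count as 1 sample, and a p-value between pools reflects the spread of these pools alone, possibly technical.

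Lmx1a encodes a LIM homeodomain transcription factor of the midbrain floor plate, the ventral midline tissue from which dopamine neurons arise. A neighbouring domain that also uses Lmx1a produces glutamatergic neurons of the subthalamic nucleus, marked by Barhl1. Neurons born outside this domain include GABAergic neurons, which make the inhibitory transmitter through Gad1 and Gad2, neurons of the red nucleus and motor neurons. The classes compared here rest on the Lmx1a transcript alone, and the negative class also held cells with markers of the Lmx1a lineages, as given below.

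Few cells lay next to the bounds, but the positive bound of Lmx1a parted cells of close values. Stmn2 was 7.10, 8.47 and 9.42 RPKM in the cells just outside its bound and 12.3, 17.6 and 30.7 RPKM in those just inside. Lmx1a reached 0.685 RPKM in the highest negative cell, lay between 1.75 and 9.81 RPKM in the 6 cells left out, and began at 10.03 RPKM in the positive cells. The positive cells had a median of 99.96 RPKM and a highest value of 609.6 RPKM.

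Low depth can hide Lmx1a, so its reads were counted back from the step between the lowest values of each cell. Depth was 0.449 to 2.63 M reads in the negative cells (median 1.70) and 0.536 to 2.46 M in the positive cells (median 1.62). A single Lmx1a read was worth a median of 0.174 RPKM in the negative and 0.183 RPKM in the positive cells. Among the negative cells, 36 had 0 Lmx1a reads, 8 had 1, 5 had 2, 1 had 3, 1 had 4 and 2 had 5. The positive cells had 30.2 to 2669 reads, with a median of 662.5. Both classes were thus read to a like depth, and even the shallowest negative cell, where 1 read was worth 0.658 RPKM, would have shown a level of 10 RPKM as more than 10 reads. Only about 71.1% of the low values of E13.5 cells lay within 0.1 of a whole read, against 20% by chance, so single read counts are estimates. A transcript lost before sequencing leaves no such trace. Lmx1a also went with the cell titles. A set of titles ran G9 to G16, G25 to G32, G41 to G48, G57 to G64 and G73 to G80. In this set only G48, G60 and G76 had more than 5.03 Lmx1a reads, at 764.1, 140.9 and 64.5. Cells with other titles made up nearly all of the positive class and also part of the negative class. The part of the title set in the differences between the classes was not tested.

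**Figure D1:**
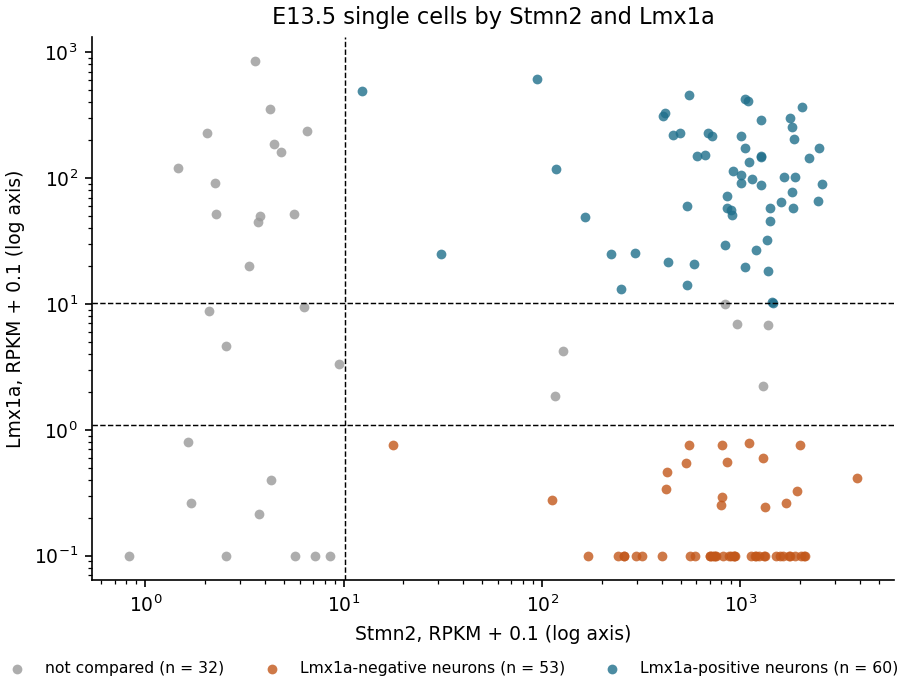
Stmn2 (x axis) and Lmx1a (y axis) of each E13.5 cell, both as RPKM + 0.1 on log axes, with dashed lines at the bounds of 10 RPKM of Stmn2 and of 1 and 10 RPKM of Lmx1a. The 53 negative cells (orange) lie at or below 0.685 RPKM of Lmx1a, the 60 positive cells (blue) at or above 10.03 RPKM, and 32 cells (grey) were not compared.

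Both classes carried the general neuronal programme. Tubb3, the neuronal beta-tubulin, was at 10 RPKM or more in all 53 negative and all 60 positive cells, with medians of 2428 and 2758 RPKM. Stmn2 itself had medians of 874.8 and 1030 RPKM. Of 14 pan-neuronal genes, 2 were at least 2-fold higher in the negative cells and 0 were lower, with a median log2 difference of -0.05 (negative minus positive, mean log2(RPKM + 1)). These 2 were Ina, an intermediate filament protein of axons, at a log2 difference of 1.52, and Syt1, the calcium sensor of synaptic vesicles, at 1.31. Over all 10992 genes kept, 3.04% were at least 2-fold higher and 3.24% lower. The number of genes at 1 RPKM or more was alike, with medians of 4287 and 4298. Of the 8 genes listed for each of microglia, mesenchyme with pericytes, and endothelium, 0 passed the filter on low values, and 2 of 8 red cell genes did with neither past 2-fold. No library was identical to another, and no doublet caller was run.

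The EGFP transcript was near 0 in the negative class and present in part of the positive class. EGFP was listed at 0 in 48 of 53 negative cells and reached at most 2.999 RPKM. Of the 60 positive cells, 21 had EGFP at 10 RPKM or more (35%), 35 were at 0, and the highest had 590.7 RPKM. EGFP was present in 15 of the 24 positive cells with Dll3, a Notch ligand of newborn neurons, and in 4 of the 15 with Th (tyrosine hydroxylase), which catalyses the first step of dopamine synthesis. Each of the 6 GFP negative pools at E13.5 had EGFP at 0, and it had a lowest, median and highest value of 51.1, 58.8 and 80.3 RPKM in the GFP positive pools.

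Over 10992 genes present in enough cells, 334 were at least 2-fold higher in the Lmx1a-negative neurons (3.04% of genes) and 356 at least 2-fold lower (3.24%), while the median over all genes was -0.01. A difference of 2-fold here means 1 unit of the mean log2(RPKM + 1). These counts depended on the pseudocount and the cells kept, with 985 higher and 981 lower at a pseudocount of 0.1, 34 and 55 at a pseudocount of 10, and 811 and 694 in cells with at least the median number of genes. With negative cells limited to those listed at 0, 611 were higher. The lowest genes in the negative class after Lmx1a were C130021I20Rik, Nr4a2 and Igsf8, and the highest were Dusp8, Hap1 and Sv2a. Most genes were present in only some cells of a class, so a difference mainly states in how many cells a gene was present.

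The dopamine genes were lower or past no bound in the negative cells. Nr4a2 (Nurr1), a nuclear receptor needed for dopamine neurons, was at 10 RPKM or more in 14 of 53 negative and 45 of 60 positive cells. Its level ran from 0 through a median of 0.279 to 937 RPKM in the negative and from 0 through 184.8 to 1474 RPKM in the positive cells, a log2 difference of -3.95. The ranges of single cells overlapped, but most negative cells sat near 0. The same gene had 11.9, 17.1 and 28.04 RPKM (lowest, median and highest) in the 6 GFP negative E13.5 pools and 279, 342 and 421 RPKM in the 6 GFP positive pools. The pools did not overlap, as for 1.83% of all genes tested in this direction and 2.18% in the other, and the log2 difference was -4.14 ± 0.27 (SE; limma adjusted p = 5.09e-11).

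Of 14 dopamine neuron genes, 11 passed the filter on low values in the cells. At least 2-fold lower in the negative class were 5, and 0 were higher, with a median of -0.80. The shares over all genes kept were 3.24% lower and 3.04% higher. The other 4 lower genes act in dopamine synthesis, storage or fate. Th was present in 6 of 53 and 15 of 60 cells, with highest values of 2293 and 6396 RPKM and a log2 difference of -1.64. Ddc, which converts L-DOPA to dopamine, was present in 9 and 24 cells and differed by -2.49. Pitx3, a homeodomain factor of dopamine neurons, was present in 6 and 17 cells and differed by -1.41, and Slc18a2, the vesicular monoamine transporter, in 10 and 19 cells by -1.07. Th, Ddc and Slc18a2 were all lower in GFP negative pools, at log2 differences of -4.57 ± 0.62, -2.15 ± 0.30 and -1.53 ± 0.29 (SE; limma adjusted p = 1.29e-05, 1.94e-05 and 0.00096). Each of the 6 GFP negative pools had Pitx3 at 0, against 49.3 to 127.3 RPKM in the GFP positive pools. In the pools, 11 of the 14 genes were called lower in the GFP negative class and 0 higher. Over all 15872 genes tested there, 3.42% were called lower and 3.74% higher, and the median log2 difference was 0.03.

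Dopamine neurons were not absent from the negative class. In 5 of 53 negative cells both Th and Nr4a2 were at 10 RPKM or more (9.43%, 95% exact interval 3.14 to 20.7, as given for each share below), against 15 of 60 positive cells (25%, 14.7 to 37.9). Within the negative class, 5 of the 6 cells with Th also had Nr4a2 and 4 also had Pitx3. The transporter Slc6a3, which takes dopamine back up, was present in 3 negative and 5 positive cells and its log2 difference was -0.36. The intervals of both dopamine shares overlap, as do those of both classes for the GABA, glutamate, Barhl1 and Tcf7l2 shares below. They cover counting error only.

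Factors shared by the Lmx1a lineages were lower as well. Of 12 genes of the floor plate lineage, 8 passed the filter, 5 were at least 2-fold lower in negative cells and 1 was higher, Nav3 at 1.06. The shares over all genes kept were 3.24% lower and 3.04% higher. Foxa1, which encodes a forkhead transcription factor, was present in 10 negative and 23 positive cells, with a log2 difference of -1.63, and Foxa2 in 8 and 19 cells, at -1.21. Rspo2, a secreted enhancer of Wnt signalling, was present in 1 of 53 negative and 16 of 60 positive cells (-1.50). Wnt5a, a Wnt ligand, was present in 9 and 25 cells (-1.46). In the pools, 10 of the 12 were called lower in the GFP negative class and 0 higher, against 3.42% and 3.74% of all genes tested. Rspo2 was at 0 to 2.54 RPKM in GFP negative pools and at 32.3 to 49.5 RPKM in GFP positive pools (log2 difference -4.52 ± 0.27, SE; limma adjusted p = 5.79e-12). Nav3 was not called in the pools, with a difference of -0.75 ± 0.35 (SE; limma adjusted p = 0.226).

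Lmx1b, the close paralogue of Lmx1a, was the LIM homeodomain gene with the largest deficit. It was present in 11 of 53 negative and 36 of 60 positive cells, with medians of 0 and 35.2 RPKM and highest values of 718.8 and 742.7 RPKM, a log2 difference of -2.78. Its pools held 2.03, 3.37 and 12.49 RPKM in the GFP negative and 55, 65.5 and 81.2 RPKM in the GFP positive class, with no overlap (-3.65 ± 0.32, SE; limma adjusted p = 1.13e-08). The gene lowest of all in negative cells, after Lmx1a, was its neighbour C130021I20Rik, annotated as antisense. C130021I20Rik was present in 18 negative and 48 positive cells, with medians of 0 and 229 RPKM and a log2 difference of -3.99, and in the pools it differed by -4.02 ± 0.37 (SE; limma adjusted p = 2.12e-08). Among positive cells, 33 of the 36 with Lmx1b also had C130021I20Rik, and among negative cells 10 of 11.

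The same arrangement was found on the other side of the comparison. The LIM homeodomain gene Lhx1, a factor of several classes of ventral neurons, and its neighbour 1500016L03Rik (named Lhx1os in RefSeq) were both higher in negative cells. Lhx1 was present in 15 of 53 negative and 3 of 60 positive cells, at a log2 difference of 1.82, and 1500016L03Rik in 23 and 11 cells, at 2.15. Of the 15 negative cells with Lhx1, 14 also had 1500016L03Rik, as did all 3 positive cells with Lhx1. In the pools, Lhx1 was at 29.8, 36.8 and 52.8 RPKM in the GFP negative and 0.0383, 1.77 and 4.32 RPKM in the GFP positive class, with no overlap (3.87 ± 0.38, SE; limma adjusted p = 6.75e-08). 1500016L03Rik was at 357, 427 and 576 RPKM against 6.83, 36.4 and 49.6 RPKM, again with no overlap (3.92 ± 0.37, SE; limma adjusted p = 3.76e-08).

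Both pairs start close together on opposite strands, and the windows around the starts of Lmx1b and Lhx1 are shown for that reason. They are RefSeq sequences of build GRCm38.p6 on the minus strand, chr2:33641049-33641348 for Lmx1b and chr11:84525485-84525784 for Lhx1, read 5′ to 3′ along the coding gene. Capitals mark the bases between the RefSeq start of the coding gene and that of its neighbour. These were 94 bases for Lmx1b and C130021I20Rik and a longer stretch for Lhx1 and 1500016L03Rik.
Lmx1b: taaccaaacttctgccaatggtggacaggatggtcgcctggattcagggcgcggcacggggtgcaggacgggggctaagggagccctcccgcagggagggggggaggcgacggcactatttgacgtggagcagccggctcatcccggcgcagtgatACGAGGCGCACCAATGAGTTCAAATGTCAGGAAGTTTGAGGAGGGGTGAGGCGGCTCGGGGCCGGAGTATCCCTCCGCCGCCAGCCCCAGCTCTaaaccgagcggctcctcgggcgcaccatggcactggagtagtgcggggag
Lhx1: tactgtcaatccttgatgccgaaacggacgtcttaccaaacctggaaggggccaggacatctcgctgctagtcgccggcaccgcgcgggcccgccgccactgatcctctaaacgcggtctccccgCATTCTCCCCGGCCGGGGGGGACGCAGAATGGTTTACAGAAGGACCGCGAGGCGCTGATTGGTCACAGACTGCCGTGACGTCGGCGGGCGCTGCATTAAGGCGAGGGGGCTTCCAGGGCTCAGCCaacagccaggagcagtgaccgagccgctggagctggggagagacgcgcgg
The sequence between the starts had a GC content of 63.8% for the Lmx1b pair and 66.4% for the Lhx1 pair, and each whole window had 65.7%, against a median of 52.7% over 32851 promoter windows of 300 bases. Both stretches in capitals hold the motif CCAAT on either strand, as do 37.4% of all windows. Neither window holds TAATTA, a core motif of many homeodomain factors searched on both strands, which 5.3% of all windows hold. These matches describe the letters only. Whether read counting kept strands apart is not stated in the sources used here. By the RefSeq starts the annotated bodies of each pair do not overlap. Lmx1b starts at position 33641098 and C130021I20Rik at 33641193 of chromosome 2, and Lhx1 at 84525534 and 1500016L03Rik at 84525660 of chromosome 11. The GENCODE gene annotation places the start of Lmx1b at 33640511, farther from C130021I20Rik. The capitals of the Lmx1b window, their GC content and their motif thus hold for the RefSeq start only.

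Genes of the subthalamic lineage were also lower in negative cells, although many negative cells kept them. Of 8 listed genes, 7 passed the filter, 4 were at least 2-fold lower and 0 higher, with a median of -1.32. The shares over all genes kept were 3.24% lower and 3.04% higher. Barhl1, a homeodomain factor of these neurons, was present in 12 of 53 negative and 29 of 60 positive cells, with highest values of 5914 and 3425 RPKM and a log2 difference of -2.33. The highest negative cell had a trace of Lmx1a, and among the 36 negative cells at 0 Lmx1a reads Barhl1 reached 710.3 RPKM. Foxp2, a forkhead factor, was present in 28 and 49 cells (-2.59) and Dbx1 in 1 and 10 cells (-1.31). None of the E13.5 cells in either class passed both the Barhl1 gate and the dopamine gate, which needs Th as well as Nr4a2. Nr4a2 itself was present in 4 of the 12 negative and 18 of the 29 positive cells with Barhl1. At E12.5, 1 Lmx1a-positive cell with a title starting with C and 1 with F passed both gates.

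In the pools 7 of these 8 genes were called lower in the GFP negative class, against 3.42% of all genes tested. Barhl1 had 3.50, 18.8 and 31.6 RPKM there against 168.7, 194.1 and 212 RPKM, with no overlap (-3.56 ± 0.37, SE; limma adjusted p = 1.62e-07). The remaining gene went the other way. Nkx2-1, a homeodomain factor of the hypothalamus, was higher in GFP negative pools by 3.66 ± 0.30 (SE; limma adjusted p = 2.41e-09), yet was present in 6 of 53 negative and 6 of 60 positive single neurons, at a log2 difference of 0.08.

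The negative class held more cells with GABAergic genes. At least 1 of Gad1, Gad2 and Slc32a1 was at 10 RPKM or more in 14 of 53 negative cells (26.4%, 15.3 to 40.3) and in 5 of 60 positive cells (8.33%, 2.76 to 18.4). Gad2, which makes GABA, was present in 13 and 5 cells, with highest values of 1128 and 289.6 RPKM and a log2 difference of 1.76. Gad1 was present in 10 and 3 cells (1.08), and Slc32a1, which loads GABA into vesicles, in 8 and 0 cells (0.83). A count of 0 of 60 allows a share of up to 5% of cells at 10 RPKM or more (3 counts of the total), and sets no limit on cells with less of the transcript. Of 16 GABAergic genes, 9 passed the filter, 3 were at least 2-fold higher in negative cells, Gad1 and Gad2 among them, and 0 lower. The shares over all genes kept were 3.04% higher and 3.24% lower.

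In the pools, 15 of the 16 listed GABAergic genes were called higher in the GFP negative class and 0 lower. Over all genes tested, 3.74% were called higher and 3.42% lower. Gad2 had 91.02 ± 20.6 RPKM in GFP negative pools, the lowest at 67.3, against 5.56 ± 3.29 RPKM in GFP positive pools, the highest at 9.83 (mean ± SD, n = 6), with no overlap (3.96 ± 0.31, SE; limma adjusted p = 1.07e-09). Gata2, a zinc finger factor that selects GABAergic fate, was present in 1 negative and 2 positive single neurons and did not pass the filter, whereas its pools differed by 4.24 ± 0.47 (SE; limma adjusted p = 4.77e-07). Pools hold all sorted cells, neurons and others, and in them fewer cells of a type and less RNA per cell cannot be told apart. Other cell markers moved with the GFP classes, as 9 of 12 progenitor genes were called lower in GFP negative pools and 2 higher. Hba-a1, a haemoglobin chain of red cells, was at 7103 and 7342 RPKM in 2 GFP negative pools, at 15.3 to 38.3 RPKM in the other 4 and at 0 to 16.2 RPKM in the GFP positive pools. The part of these cells in the pool differences was not tested. Of 5 X and Y linked genes, 1 was called lower in GFP negative pools and 0 higher. This was Kdm5d, a Y-linked gene, at 1.45 to 2.78 RPKM against 3.39 to 8.68 RPKM (-0.97 ± 0.24, SE; limma adjusted p = 0.0118). The Y-linked Ddx3y and Eif2s3y differed by -0.81 and -0.54 without a call. Whether the sex of the embryos differed between the GFP classes was not tested.

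The cells with GABAergic genes differed between the classes in what else they carried. Of the 14 negative cells in the GABA gate, 1 also had a vesicular glutamate transporter, while all 5 of the positive cells in the gate had Slc17a6. Inside the negative class, Gata3 was present in 7 of the 14 GABA gate cells and in 0 of the other 39. Lhx1 was present in 7 and Lhx5 in 6 of the 14, against 8 of 39 for each outside the gate. Dlx1 and Six3, forebrain factors of GABAergic neurons, were each present in 4 of the 14 and in 1 of the 39. Slc17a6, the main vesicular glutamate transporter of the brainstem, was present in 1 of the 14 and in 24 of the 39. The median numbers of genes in these cells were 4520 and 4089.

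Cells with a vesicular glutamate transporter made up the largest share of both classes. Such a transporter was present in 25 of 53 negative cells (47.2%, 33.3 to 61.4) and in 41 of 60 positive cells (68.3%, 55.04 to 79.7). Some of these cells also passed other gates. Of the 41 positive cells, 6 passed the dopamine gate and 5 the GABA gate, and of the 25 negative cells 1 and 1. Slc17a6 had medians of 4.31 and 67.9 RPKM and a log2 difference of -1.75. In the pools Slc17a6 did not pass the test, although the 6 values of each class did not overlap, with 38.1 to 52.02 RPKM in GFP negative and 64.3 to 116.9 RPKM in GFP positive pools (-0.77 ± 0.34, SE; limma adjusted p = 0.194).

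Tcf7l2, a factor of Wnt signalling that marks neurons of the caudal diencephalon, was high in a subset of negative cells. It was at 10 RPKM or more in 13 of 53 negative (24.5%, 13.8 to 38.3) and 3 of 60 positive cells (5%, 1.04 to 13.9), with highest values of 4345 and 3114 RPKM and medians of 1.68 and 0.704 RPKM. Of the 13 negative cells, 8 had a glutamate transporter, 4 had Barhl1 and 1 passed the GABA gate. In pools Tcf7l2 had 401, 726 and 1214 RPKM in the GFP negative and 17.6, 31.1 and 52.9 RPKM in the GFP positive class (4.35 ± 0.26, SE; limma adjusted p = 5.79e-12). Pou4f1, a factor of red nucleus neurons, was present in 4 negative and 0 positive cells, all 4 of them with a glutamate transporter. Isl1, a LIM factor of motor and some forebrain neurons, was present in 6 negative cells and in 0 positive cells, and reached 2312 RPKM in the negative class. No cell of either class had Fev or Tph2, which are serotonergic markers, at 10 RPKM, and 1 negative cell passed the motor gate. Of the 5 listed serotonergic genes, 4 were at 0 in every cell. The list summed to at most 102.9 RPKM in a positive cell and to 0 in every negative cell. The pools did hold Fev and Tph2. Fev was at 12.2 to 68.1 RPKM in the GFP negative pools and listed at 0 in every GFP positive pool, and Tph2 was at 0.517 to 17.9 RPKM against 0 to 2.28 RPKM (2.31 ± 0.43, SE; limma adjusted p = 0.000864).

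**Figure D2:**
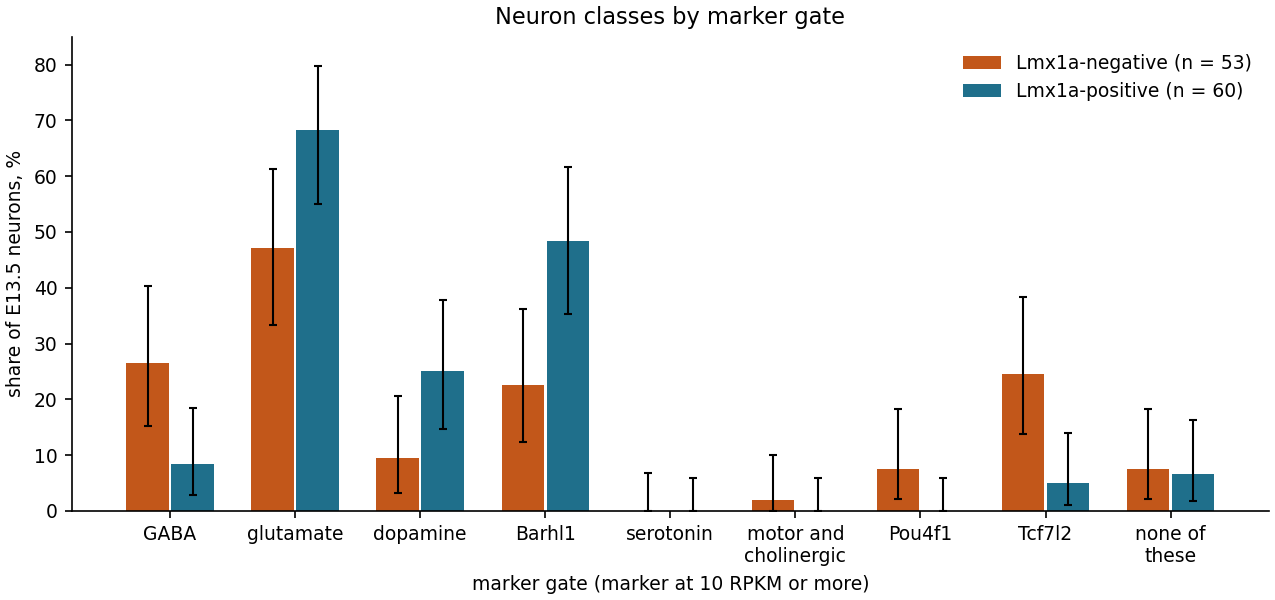
Share of the 53 Lmx1a-negative (orange) and 60 Lmx1a-positive (blue) E13.5 neurons in each marker gate, in percent, with exact 95% Clopper-Pearson intervals as bars. The GABA and Tcf7l2 gates were the larger in negative cells (26.4% and 24.5%), and the glutamate, dopamine and Barhl1 gates in positive cells (68.3%, 25% and 48.3%).

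The genes with the largest excess in negative cells were also read in the pools. Dusp8, a phosphatase that acts on MAP kinases, led the higher genes. It was present in 27 of 53 negative and 11 of 60 positive cells, with medians of 16.5 and 0.0461 RPKM and a log2 difference of 2.65. Its pools overlapped, with 34.9, 45.2 and 49.6 RPKM in the GFP negative and 26.9, 36.1 and 71.2 RPKM in the GFP positive class (0.19 ± 0.18, SE; limma adjusted p = 0.627). Hap1, a partner of huntingtin in vesicle transport, was present in 36 and 19 cells (2.43). Its pools did not overlap, with 42.3, 57.4 and 68.2 RPKM against 20.1, 27.99 and 37.7 RPKM (0.89 ± 0.18, SE; limma adjusted p = 0.00239). Sv2a, a synaptic vesicle protein, was present in 34 and 21 cells (2.17) and its pools differed by 0.79 ± 0.21 (SE; limma adjusted p = 0.0186, 0.0515 without GFP positive pool 2 and 0.0615 with a pseudocount of 0.1). Syn1, a synaptic vesicle phosphoprotein present in 36 and 25 cells (2.08), had pools that differed by 0.02 ± 0.22 (SE; limma adjusted p = 0.975).

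Of the 15 genes named for the largest differences in each direction, 6 of the higher ones were called higher in GFP negative pools. These were Hap1, Sv2a, 1500016L03Rik, Dab1, Rac3 and Lhx1. Of the lower ones, 13 were called lower. EGFP is among these 13, and its call was fixed in advance because the pools were sorted on GFP. Nrn1 and Tmem176b were the lower genes without a call, with pool differences of -0.20 ± 0.19 and 0.36 ± 0.26 (SE; limma adjusted p = 0.626 and 0.489). Without 1 pool, the call of Rac3 was lost in 10 of 12 fits (and under 3 of 5 other settings), and that of Dab1 in the fits without GFP negative pool 1 or 5 or GFP positive pool 4 (limma adjusted p = 0.0548, 0.0545 and 0.0591). Over the 334 genes higher in cells, 45 (13.47%) were called higher in GFP negative pools and 1 lower. Over the 356 lower genes, 78 (21.9%) were called lower, with EGFP among them, and 6 higher. Over all 10926 genes measured in both, 4.17% were called higher and 3.61% lower. The median pool difference was 0.21 over the 334 genes and -0.16 over the 356 genes. Across these genes, which are not independent replicates, Pearson's r between the cell and pool differences was 0.245 and Spearman's rho 0.162.

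**Figure D3:**
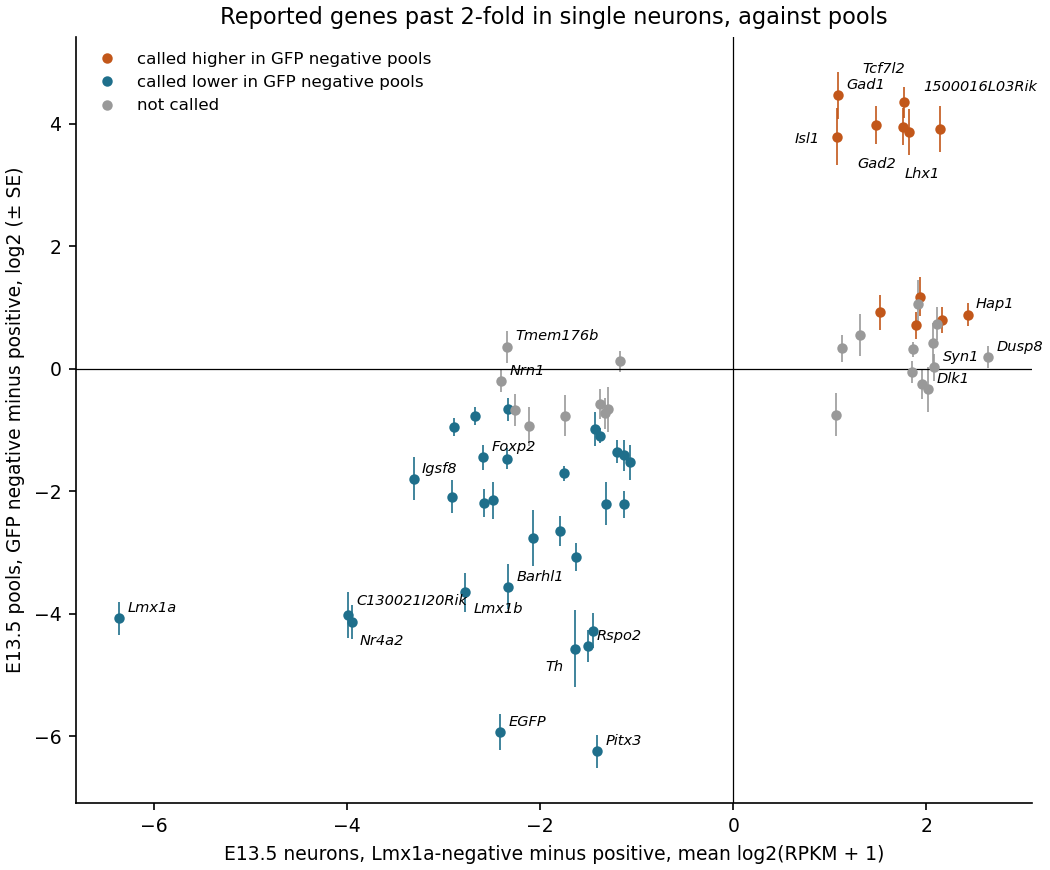
Log2 difference of E13.5 neurons (x axis, Lmx1a-negative minus positive) against that of E13.5 pools (y axis, GFP negative minus positive, bars are SE of limma) for the genes reported here from the named and listed ones past 2-fold in cells, coloured by the call in pools. Nr4a2 (-3.95, -4.14) and Lmx1b (-2.78, -3.65) lie far from 0 on both axes, whereas Dusp8 (2.65, 0.19) and Syn1 (2.08, 0.02) lie near 0 in pools. Lmx1a itself chose the cells, and the sort on GFP fixed the call of EGFP in the pools.

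**Figure D4:**
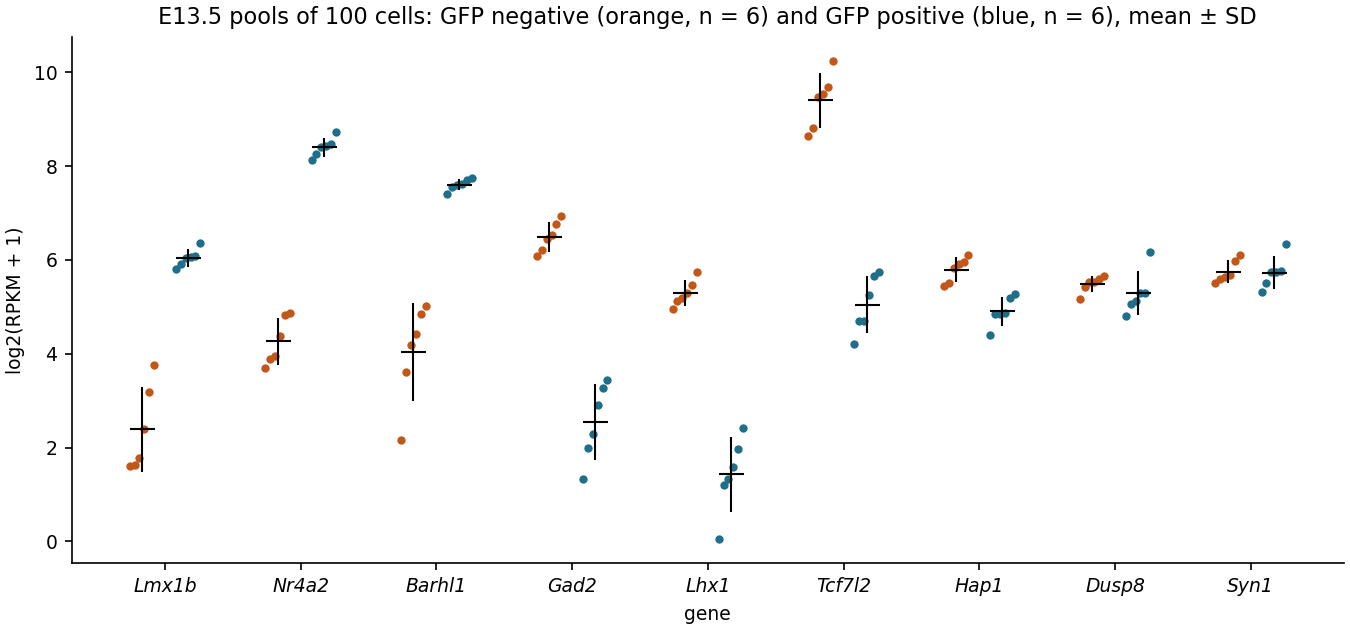
Level of 9 genes in the 6 GFP negative (orange) and 6 GFP positive (blue) E13.5 pools as log2(RPKM + 1), with the mean and SD over pools. The classes do not overlap for Lmx1b, Nr4a2, Barhl1, Gad2, Lhx1, Tcf7l2 and Hap1, and overlap for Dusp8 and Syn1.

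Other genes lower in the negative cells were also called lower in the pools. Igsf8, an immunoglobulin superfamily membrane protein, was present in 13 negative and 37 positive cells, with medians of 0.456 and 98.7 RPKM (-3.31), and its pools held 10.8, 68.97 and 100.8 RPKM against 148.5, 188.0 and 234 RPKM (-1.79 ± 0.35, SE; limma adjusted p = 0.00126). Ebf2, a helix-loop-helix factor of young neurons, was present in 6 and 30 cells (-2.91) and its pools differed by -2.09 ± 0.27 (SE; limma adjusted p = 4.18e-06). Rasgef1b, an exchange factor for Ras-family GTPases, was present in 9 and 31 cells (-2.58). Igfbp2, a binding protein for insulin-like growth factors, was present in 22 and 44 cells (-2.34). Cck, a neuropeptide, was present in 2 and 17 cells (-2.07), and its pools differed by -2.76 ± 0.45 (SE; limma adjusted p = 0.000169). Slit2, a repulsive axon guidance ligand, was present in 14 and 27 cells (-1.80), with a pool difference of -2.65 ± 0.24 (SE; limma adjusted p = 1.95e-08).

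**Figure D5:**
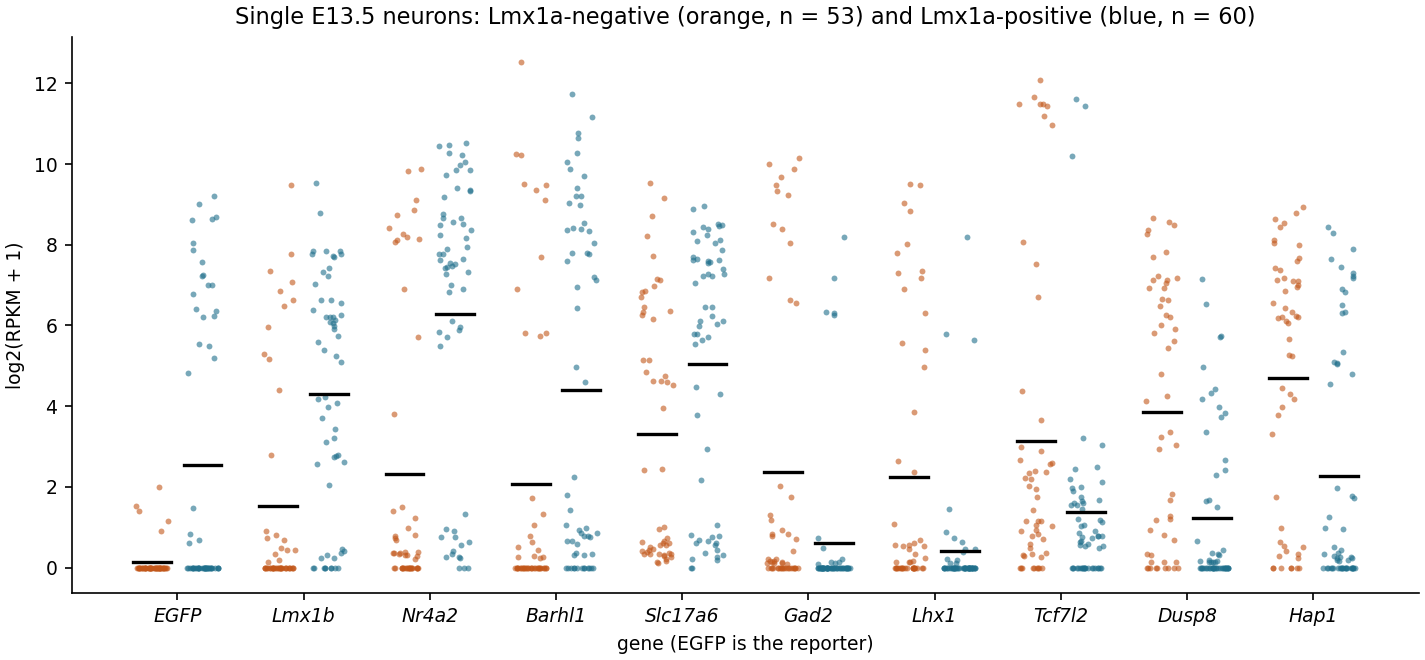
Log2(RPKM + 1) of 10 genes in each of the 53 Lmx1a-negative (orange) and 60 Lmx1a-positive (blue) E13.5 neurons, with the mean of each class as a line. Most genes are either near 0 or high in a cell, as for Nr4a2 with 14 negative and 45 positive cells at 10 RPKM or more.

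Markers of less mature cells moved with the comparison. Of 10 proneural and newborn-neuron genes, 8 passed the filter, 2 were at least 2-fold lower in negative cells, Dll3 (8 of 53 and 24 of 60 cells, -2.12) and Nhlh1 (1 and 16 cells, -1.43), and 0 were higher. Of 12 progenitor genes, 7 passed, Sox9 (4 and 18 cells, -1.75) and Vim (18 and 31 cells, -1.38) were lower, and 0 were higher. Over all genes kept, 3.24% were at least 2-fold lower and 3.04% higher. The summed level of the progenitor list had a median of 6.88 RPKM (0 to 10560) in negative and 152.6 RPKM (0 to 7124) in positive cells. For the proneural list the highest sums were 1389 RPKM in negative and 2070 RPKM in positive cells. None of the progenitor genes was at 0 in every cell. Of 12 cell cycle genes, 2 passed the filter and 0 were past 2-fold. In the E13.5 pools Sox9 and Vim were also lower in the GFP negative class, at log2 differences of -1.71 ± 0.12 and -1.09 ± 0.13 (SE; limma adjusted p = 1.48e-10 and 9.78e-07). The part of these cells in the differences was not tested.

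Cells with a trace of Lmx1a differed from those with none. The 17 negative cells with 1 to 5 Lmx1a reads were compared with the 36 at 0, a split that again uses Lmx1a. Lmx1b was present in 7 of the 17 and 4 of the 36 cells, Nr4a2 in 7 and 7, Barhl1 in 6 and 6, and Foxp2 in 13 and 15. In the opposite direction, Gad2 was present in 2 of the 17 and 11 of the 36, Lhx5 in 0 and 14, and Slc17a6 in 4 and 21. Depth was alike, at medians of 1.70 and 1.68 M reads, but the 17 cells had a median of 3657 genes and the 36 cells 4452. Lineage factors were thus also found in cells at 0 Lmx1a reads, where Th was present in 3 of 36. Most of the 36 cells carried titles of the set that began with G9, and most of the 17 did not. The part of the title set in this split was not tested.

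The split was repeated in the E12.5 cells, whose titles start with C (63 cells) or F (the rest) and which were kept apart. By the same bounds the C cells gave 19 negative and 22 positive neurons and the F cells 47 and 42. The genes lower at E13.5 were lower again, past 2-fold, in 37.2% of 328 measured in C cells and 33.7% of 356 in F cells. Over all genes kept at both stages 20.6% and 9.86% were lower to that extent. The genes higher at E13.5 were higher again in 41 of 296 (13.9%) in C and 51 of 331 (15.4%) in F cells, against 6.21% and 2.48% of all genes. Negative cells had fewer genes than positive cells at E12.5, with medians of 3928 and 4392 in C and 3635 and 4334 in F, and the median difference over all genes was -0.32 and -0.19. The part of this gap in gene number in the E12.5 differences was not tested.

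At E12.5, all 15 named lower genes had the same sign in both sets, and 10 in C and 14 in F were past 2-fold. Of all genes kept at both stages, 65.03% in C and 63.27% in F cells had that sign. Of the higher genes 6 of 14 in C and 5 of 15 in F were past 2-fold. Dusp8 differed by 0.03 in C and 0.13 in F, and Hap1 by 0.21 and 0.17. Dlk1, an imprinted transmembrane protein, was higher in negative cells at E13.5 (2.02), and differed by -2.12 in F cells. In all 3 sets of cells, 9 genes were past 2-fold higher and 51 past 2-fold lower. Over all genes kept at both stages, lower genes were also the more common at E12.5. They made up 20.6% in C and 9.86% in F cells, against 6.21% and 2.48% for higher genes. The share over all genes kept in the 3 sets together was not computed. Over all genes measured in both cells and pools, 4.17% were called higher and 3.61% lower in the pools. Of the 9 higher genes, 4 were also called in the pools, 1500016L03Rik, Lhx1, Gad2 and Lhx5. Of the lower genes 25 were also called, among them C130021I20Rik, Nr4a2, Igsf8, Schip1, Lmx1b, Foxp2, Barhl1, Foxa1 and Wnt5a. EGFP is also among the 25, and the sort of the pools on GFP fixed its call. Lhx5, a LIM homeodomain factor, differed by 1.48 at E13.5, by 1.82 and 2.43 in C and F cells, and by 3.98 ± 0.31 in the pools (SE; limma adjusted p = 1.22e-09).

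The GABA gate held 4 of 19 negative and 1 of 22 positive C cells, and 14 of 47 negative and 5 of 42 positive F cells. The Barhl1 gate held 3 of 19 and 9 of 22 C cells, and 11 of 47 and 18 of 42 F cells. The Tcf7l2 gate was not larger in negative than in positive F cells, with 2 of 19 and 1 of 22 C cells and 1 of 47 and 3 of 42 F cells. Tcf7l2 differed by 0.35 in C and -0.31 in F cells, against 1.77 at E13.5. The Pou4f1 gate held 1 of 19 negative and 0 of 22 positive C cells. In F cells it held like shares of both classes, 5 of 47 negative and 4 of 42 positive.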

How the data were processed

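The submitters' processing notes name STAR 2.3.0 and mm10. Neither the read counter nor the annotation is given in the sources used here. The authors deposited single cells as log2(RPKM + 0.001), which were turned back into RPKM, and pools as deposited RPKM values. Neither table holds counts. The depth of cells (0.432 to 2.81 M reads at E13.5) was estimated from read steps, and the depth of pools was not estimated. Intervals and limits of a count of 0 (3 counts) cover counting error only, since reads carry no molecular identifiers and may be copies of 1 molecule.

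A gene was present at 10 RPKM or more. Genes present in at least 5 E13.5 neurons were kept, and cells were compared by the mean log2(RPKM + 1) with no test. Named genes were the 15 with the largest difference in each direction among those past 2-fold and present in at least 25% of the higher class, plus members of 23 lists, EGFP, Lmx1a and Stmn2. Single values of 2 list members are not reported here, although list counts hold them. The members and lists were chosen with earlier results of these data known. The 24 pools entered a single limma model (version 3.58.1, R 4.3.3) on log2(RPKM + 1), with 4 group means, a variance trend and Benjamini-Hochberg adjustment, over 15872 genes at 1 RPKM or more in at least 6 pools, and called at an adjusted p under 0.05. Fold changes on this scale understate changes of low genes. On simulated data for the E13.5 pool comparison (15872 genes) the fit recovered 70 of 100 genes changed 2-fold and 93 of 100 changed 4-fold, with 10 false calls among 173. Alternatives varied the bounds, the pseudocount, the scaling, the filter, the pools and the stage. Python 3.11.15 was used.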

Additional observations from a re-analysis of the deposited data

Results flagged for a closer look

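For 63 genes reported, the 6 pools of each GFP class were checked as a group, and 9 of these groups had a highest or lowest pool set apart from the others, and chance flags about 1 in 20 groups. In GFP positive pools the highest value stood apart for Dusp8 (71.22 RPKM, next 38.3), Syn1 (79.78, next 52.99), Pianp (26.12, next 17.62), Senp3 (47.65, next 32.95), EGFP (80.34, next 61.57) and Slc18a2 (84.92, next 48.49). In GFP negative pools it stood apart for 8430419L09Rik (170.97 RPKM, next 114.2) and Gad1 (63.07, next 43.76), and the lowest value stood apart for Isl1 (11.16 RPKM, next 35.32).

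Outside the comparison, 18 of the 26 E13.5 cells below the Stmn2 bound had EGFP at 10 RPKM or more, against 21 of 60 Lmx1a-positive neurons and 0 of 53 Lmx1a-negative neurons.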

How the results depend on the processing

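The counts of genes past 2-fold in cells, 334 higher and 356 lower, moved with some choices. With Lmx1a-negative cells limited to those listed at 0 (36 cells), 611 genes were higher. With only cells above the median number of genes (26 and 31 cells), 811 were higher and 694 lower. A pseudocount of 0.1 gave 985 and 981, and a pseudocount of 10 gave 34 and 55. The other settings gave counts within 1.5 times, such as 297 and 286 after median-ratio scaling and 327 and 382 without cells holding Mki67, Top2a or Sox2, which left out 1 negative and 0 positive cells. The share of negative cells in the GABA gate stayed between 26.4% and 35.9%, and that of positive cells in the dopamine gate between 24.1% and 35%.

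Directions turned for some genes in E12.5 cells, and the cause was not tested. In C cells these were Sv2a (-0.12), Dab1 (-0.39), Senp3 (-0.41), Nav3 (-0.46), Dcc (0.41), Dll3 (0.30), Foxa2 (0.59) and Slit2 (0.088). In F cells they were Pianp (-0.076), Dlk1 (-2.12), Rac3 (-0.0056), Senp3 (-0.55), Gria2 (-0.031) and Tcf7l2 (-0.31).

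In pools, 484 to 642 genes were higher and 426 to 609 lower over the other settings, and 483 to 615 and 458 to 554 when each pool was left out in turn. Without 1 pool, the difference of Syn1 (not called) ran from -0.062 to 0.14 and turned below 0 in 4 fits (-0.049 and -0.023 without GFP negative pools 5 and 6, -0.062 and -0.024 without GFP positive pools 2 and 4), and that of Senp3 (not called) ran from -0.12 to 0.095 and was above 0 in 2 fits (0.095 and 0.049). The calls of Rac3 and Ina were lost in 10 of 12 such fits, of Nhlh1 in 6, of Zfp536 in 4, of Dab1 in 3 and of Sv2a in 1. Under the other 5 settings, the calls of Rac3, Ina and Sv2a were lost in 3, 2 and 1, and 2 gave a call for each of Slc17a6, Tmem130 and Ebf3. No paired analysis was possible because the labels give no replicate numbers that pair pools of the GFP classes. The number of pools limits the precision.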
